A study of Mus musculus with 10 samples.

Results

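MHC class I molecules display peptides from inside the cell to CD8+ T cells, and 10 genes of this pathway were described in microglia, the resident macrophages of the brain: the heavy chains H2-K1 and H2-D1, the light chain B2m, the peptide transporter subunits Tap1 and Tap2, the loading factor Tapbp, the immunoproteasome subunits Psmb8 and Psmb9, the transactivator Nlrc5 and the peptide-trimming enzyme Erap1. The genes were chosen by name, with earlier results of these data known. Each was read from the brightest probe that the platform annotation gives to that gene alone. Of the 10 genes, 8 had such a probe and were tested, among 10792 genes tested of 19749 with a probe of their own. H2-K1 and H2-D1 had 0 such probes.

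The study placed RNA of sorted microglia from male mice, C57BL/6 (WT) or Trem2-/-, 8 to 12 weeks old, on 10 microarrays. Trem2 encodes a lipid-sensing receptor of microglia, and cuprizone, a compound that binds copper, makes the brain lose oligodendrocytes and their myelin when fed. Each genotype had 1 library without cuprizone (control), 1 after 4 and 1 after 12 weeks on food with 0.2% cuprizone, and 1 of each feeding time followed by 2 weeks of normal food (recovery). Feeding time served as the replicate within cuprizone and within recovery, so each of these groups held 2 libraries and each control group held 1. The labels do not say which part of Trem2 is deleted, whether animals were pooled, or which surface markers were used to sort. The Trem2-/- library titled 12 weeks on cuprizone carries a time label and a description of 4 weeks, and it was placed by its title. The controls and the 4-week libraries form one run of the submitters' sample numbers and the 12-week libraries another, so feeding time and run cannot be told apart.

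In the class I pathway the proteasome cuts cytosolic proteins, and interferon-inducible subunits such as PSMB8 and PSMB9 replace constitutive ones to form the immunoproteasome. The TAP transporter carries the peptides into the endoplasmic reticulum, where tapasin, the product of Tapbp, holds the empty heavy chain and beta-2-microglobulin at the transporter until a peptide binds. ERAP1 trims the peptides to length. NLRC5 drives transcription of several of these genes, and interferons raise the pathway in most cells. Microglia carry little class I protein at rest and are known to raise it in inflamed or demyelinated tissue.

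Psmb9 and Tap1 are divergent neighbours: their RefSeq start sites lie 225 bases apart, and their 300-base windows (250 bases before to 50 after the start, GRCm38.p6) share 275 bases. The Psmb9 window is shown because that gene differed by feeding time, the Tapbp window because its level did not overlap between genotypes in the libraries exposed to cuprizone, and the B2m window because it holds an interferon-type motif. Capitals mark CCAAT, the core of the Y box, and the interferon-response-like motif GAAA, any 2 bases, GAAA, each on either strand.
Psmb9 (chr17:34187281-34187580, minus strand): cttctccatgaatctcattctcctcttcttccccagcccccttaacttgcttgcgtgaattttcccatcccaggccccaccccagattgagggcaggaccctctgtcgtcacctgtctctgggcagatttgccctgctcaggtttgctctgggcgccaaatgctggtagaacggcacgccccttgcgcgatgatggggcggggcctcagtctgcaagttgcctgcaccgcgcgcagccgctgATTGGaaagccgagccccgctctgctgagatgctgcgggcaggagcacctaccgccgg
Tapbp (chr17:33919228-33919527, plus strand): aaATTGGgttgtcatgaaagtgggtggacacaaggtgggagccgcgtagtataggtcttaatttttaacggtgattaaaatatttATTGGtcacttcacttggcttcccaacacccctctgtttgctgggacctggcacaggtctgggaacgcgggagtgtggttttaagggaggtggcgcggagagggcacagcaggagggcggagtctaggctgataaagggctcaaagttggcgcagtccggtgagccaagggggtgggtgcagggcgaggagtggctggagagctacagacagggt
B2m (chr2:122147437-122147736, plus strand): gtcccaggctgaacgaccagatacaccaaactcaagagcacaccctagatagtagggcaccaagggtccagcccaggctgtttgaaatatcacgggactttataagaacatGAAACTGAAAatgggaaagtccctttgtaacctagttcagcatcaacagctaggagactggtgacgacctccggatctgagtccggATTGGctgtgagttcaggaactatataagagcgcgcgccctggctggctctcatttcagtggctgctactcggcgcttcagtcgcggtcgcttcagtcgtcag

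Windows were found for 8 of the 10 genes, all except Tap2 and Nlrc5. The interferon-response-like motif was in 2 of the 8 (B2m and Erap1), against 3.44% of 32851 windows of the same length. CCAAT was in 6 of the 8, against 37.4%. The other motifs searched on both strands were GGG, any 5 bases, CC (NF-kB-like, 5 of the 8 against 50.8%), TTC, any 3 bases, GAA (GAS, 1 of the 8, Psmb8, against 8.3%) and TGACGT (CRE, 0 of the 8 against 7.51%). A match describes the letters only, and the overlapping Tap1 and Psmb9 windows are not independent. A window without a match can still hold a related sequence that differs from these exact patterns.

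The microglial label fits the arrays: all 11 measured microglia markers were above the table median (5.27, log2 intensity) on every array. Trem2 itself, the check of the genotype labels, was 10.66 to 10.81 in WT and 7.26 to 7.85 in Trem2-/- libraries. Array medians were 37.6 to 39.3 in linear intensity. All 8 tested genes were above the table median on 10 of 10 arrays, so none was chosen or lost through low signal. The labels do not say that the libraries came from separate animals, so p-values measure the spread between these libraries, and in bulk RNA fewer cells with a transcript and less of it per cell cannot be told apart.

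B2m, the light chain shared by all class I molecules, had the smallest spread of the 8 genes. Its log2 level in WT libraries was 12.56 in control, 12.57 and 12.49 after 4 and 12 weeks of cuprizone, and 12.55 and 12.71 in recovery from 4 and 12 weeks. The Trem2-/- levels in the same order were 12.45, 12.56, 12.62, 12.56 and 12.68. All 10 libraries lay within 0.26, and the genotypes overlapped. Levels of different probes are on different scales, so only the same gene is compared across libraries.

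The classical heavy chains could not be read apart. The 2 probes that list H2-K1 and H2-D1 also list another locus of the cluster, and their values belong to no single gene. One of them read 9.95, 10.75, 10.35, 10.73 and 10.26 in WT and 10.26, 10.45, 9.87, 10.47 and 10.38 in Trem2-/- libraries (control, cuprizone 4 and 12 weeks, recovery from 4 and 12 weeks). The other read 9.98, 10.30, 10.22, 10.32 and 10.36 in WT and 10.11, 10.15, 10.24, 10.29 and 10.16 in Trem2-/- libraries. Both were lowest among WT libraries in the control, and neither was tested.

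Tap1, which encodes 1 subunit of the transporter, ranged more widely. Its log2 level was 6.29 in the WT control, 6.81 and 6.60 on cuprizone and 6.57 and 6.31 in recovery. The Trem2-/- values were 6.24 in control, 6.33 and 5.77 on cuprizone and 6.40 and 6.61 in recovery. The highest library was WT after 4 weeks and the lowest was the Trem2-/- library titled 12 weeks, a range of 1.05. Tap2, its partner, stayed within 0.33: 6.73, 6.84, 6.92, 6.78 and 6.80 in WT, and 7.05, 6.84, 6.76, 6.82 and 6.79 in Trem2-/- libraries, in the order given for B2m. The highest Tap2 value was the Trem2-/- control and the lowest the WT control.

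Tapbp, which holds the heavy chain at the transporter, was 7.98 in the WT control, 8.10 and 8.15 on cuprizone and 8.09 and 8.12 in recovery. In Trem2-/- libraries it was 8.03 in control, 7.73 and 7.56 on cuprizone and 7.82 and 7.89 in recovery. The controls of both genotypes were close, whereas the 4 WT libraries exposed to cuprizone all lay above the 4 Trem2-/- ones (lowest 8.09, highest 7.89). Among the 8 genes, Tapbp was the only one without overlap in that comparison of libraries. The share of all tested genes without such overlap was not counted, so the separation cannot be called particular to Tapbp. Erap1, which trims peptides, was 7.29, 7.5, 7.55, 7.35 and 7.44 in WT and 7.19, 7.36, 7.59, 7.47 and 7.39 in Trem2-/- libraries, in the order given for B2m. Both controls were the lowest Erap1 libraries of their genotype.

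Psmb8, an immunoproteasome subunit, was 8.37 in the WT control, 8.74 and 8.64 on cuprizone and 8.51 and 8.45 in recovery. Its Trem2-/- values were 8.37, 8.57 and 8.25, and 8.41 and 8.15. Every exposed WT library was above its control, and the Trem2-/- libraries lay on both sides of theirs. Psmb9, the second such subunit, was 9.30, 9.81, 8.68, 9.54 and 9.34 in WT and 9.51, 9.60, 8.89, 9.58 and 9.21 in Trem2-/- libraries, in the order given for B2m. It had the widest range of the 8 genes, 1.14, with both 12-week cuprizone libraries lowest.

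Nlrc5, the transactivator of class I genes, was read from the brightest of its 19 probes. That probe gave 8.04, 7.94, 8.23, 8.05 and 8.31 in WT and 8.02, 7.95, 8.27, 7.81 and 8.43 in Trem2-/- libraries, in the order given for B2m. The 4 libraries titled 12 weeks were the 4 highest.

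**Figure D1:**
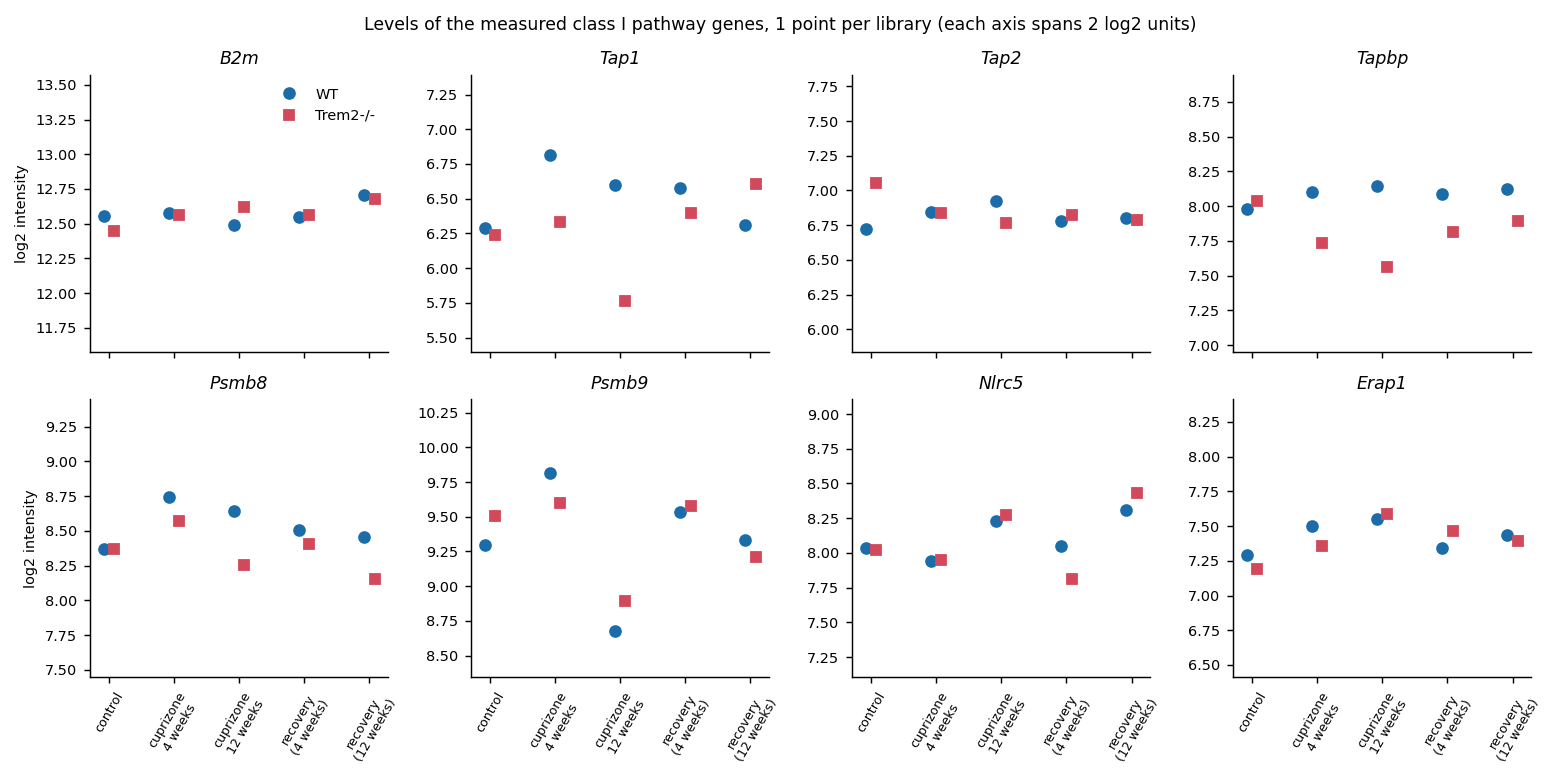
Log2 intensity of the 8 genes with a probe of their own (1 panel per gene, each vertical axis spanning 2 log2 units) in the control, cuprizone and recovery libraries, 1 point per library, blue circles for WT and red squares for Trem2-/-. Tapbp runs lower in every Trem2-/- library exposed to cuprizone, Psmb9 is lowest in both libraries titled 12 weeks on cuprizone, and B2m and Tap2 are nearly flat.

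In WT microglia the cuprizone libraries held more signal than the control for 6 of the 8 genes, by small amounts. Tap1 was 0.42 ± 0.29 higher (log2 difference ± SE, 2 libraries against 1), Psmb8 0.33 ± 0.24 and Erap1 0.23 ± 0.22. On the mean, B2m and Psmb9 were slightly lower, at -0.03 and -0.05. The Psmb9 mean joins opposite values, 0.52 at 4 weeks and -0.62 at 12 weeks, the latter across runs of sample numbers. None of the 8 differences passed an adjusted p of 0.05 (limma with Benjamini-Hochberg adjustment over all genes), where 0.148% of all tested genes were called. The smallest adjusted p of the 8 was 0.998. At an unadjusted p under 0.05 there were 0 of the 8, against 4.36% of all genes. The median over the 8 genes was 0.15, beside 0.01 over all genes. With 1 control the intervals are wide: for Tap1 the 95% interval ran from -0.25 to 1.09, and for Psmb9 from -1.13 to 1.02.

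Genes induced by interferon, which also raises class I expression, lay further from control in the same WT libraries. Of 18 tested interferon-induced genes, 16 were higher on cuprizone with a median of 1.02, and 0 were called after adjustment. At an unadjusted limma p under 0.05 there were 6 of the 18, against 4.36% of all genes. Ifit1 and Ifit2 were below the table median in both controls and passed the filter only through exposed libraries. Oasl2 was below it in the WT control (5.07). The counts and medians of this list are therefore descriptive and no independent support. Oasl2 was 1.32 ± 0.34 higher (limma adjusted p 0.492) and Usp18 1.29 ± 0.37 (adjusted p 0.699). Library by library, the median of the 18 genes over the WT control was 1.18 at 4 and 0.86 at 12 weeks of cuprizone, where the median of the 8 class I genes was 0.16 and 0.20. Summed signal of 13 measured T and NK cell markers was 450 in the WT control and 939 to 1765 on cuprizone in linear intensity, and among them Ccl5, a chemokine that macrophages also make, reached 10.57 on the log2 scale. Each library had 2 to 4 of the 13 markers above the table median: Prf1 and Ccl5 were above it on 10 arrays, Cd3e on 7 (up to 5.77) and Nkg7 on 4, and the other 9 on 0. The part of lymphocytes in the class I values was not tested.

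Of the 14 genes listed as constitutive proteasome core, 12 were higher on cuprizone in WT (median 0.25), with 0 called. Psma4 was 0.48 ± 0.28 and Psma1 0.40 ± 0.21 higher (limma adjusted p 0.998 for each). Of 16 tested chaperones and other loading factors, 13 were higher with a median of 0.09 and 0 called.

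In Trem2-/- microglia the cuprizone libraries showed no common direction against their control. Of the 8 genes, 4 were higher and 4 lower with a median of -0.07, and 0 were called, as for all genes (0%). Tapbp was at -0.39 ± 0.21 (95% interval -0.87 to 0.10) and Erap1 at 0.28 ± 0.22, beside 0.23 in WT. Interferon-induced genes had a median of 0.17. Averaged over both genotypes, the cuprizone difference was above 0 for 5 of the 8 genes with 0 called, beside 0.111% of all genes, and Erap1 had the highest value, 0.26 ± 0.15 (limma adjusted p 0.954).

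The response itself was compared between genotypes by the interaction of genotype and cuprizone. The Trem2-/- response was lower than that of WT for 5 of the 8 genes, with Tap1 at -0.61 ± 0.41, Tapbp at -0.53 ± 0.30 and Tap2 at -0.41 ± 0.29. None was called after adjustment, beside 0.00927% of all genes. At an unadjusted limma p under 0.05 there were 0 of the 8, against 1.47% of all genes. The Tap2 value rests on its 2 control libraries, which are its extremes.

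**Figure D2:**
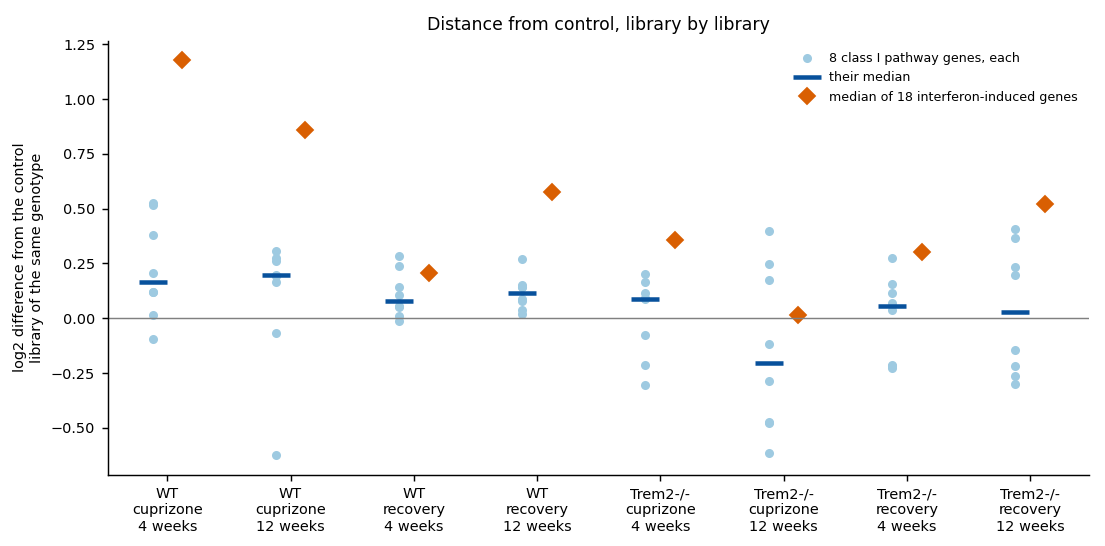
Log2 difference of each exposed library from the control library of its genotype: pale points are the 8 class I pathway genes, blue bars their median and orange diamonds the median of 18 interferon-induced genes. The class I medians lie between -0.20 and 0.20, whereas the interferon medians reach 1.18 in WT after 4 weeks of cuprizone and 0.01 in the Trem2-/- library titled 12 weeks.

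On cuprizone, Trem2-/- microglia had less Tap1 and Tapbp signal than WT at both feeding times. The Tap1 difference was -0.48 at 4 weeks and -0.83 at 12 weeks (mean -0.66 ± 0.24, 95% interval -1.20 to -0.11). For Tapbp it was -0.37 and -0.58 (mean -0.48 ± 0.17, interval -0.87 to -0.08). Each had an unadjusted limma p of 0.024 and an adjusted p of 0.952, so neither was called. With titled feeding time as a replicate block in the fit, the unadjusted limma p was 0.007 for Tap1 and 0.011 for Tapbp. The adjusted p was then 0.206 and 0.251, so neither was called, where 153 of all tested genes were. Psmb8 followed at -0.28 ± 0.20. For Tap2 (-0.08), Erap1 (-0.05), Nlrc5 (0.02) and B2m (0.06) the differences were smaller than their SE, and the Psmb9 difference was -0.00 ± 0.38. Without the block, 0 of the 8 genes were called where 0.334% of all genes were called. In that fit 2 had an unadjusted p under 0.05, as did 4.47% of all genes. Without the Trem2-/- library titled 12 weeks the Tap1 difference was -0.37. Interferon-induced genes had a median difference of -0.76 in this comparison, with 16 of 18 lower and 0 called, and Oas1a, an antiviral RNA sensor, was at -1.19 ± 0.29 (adjusted p 0.302).

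In recovery the Tap1 difference was not seen. Tap1 was 0.06 ± 0.24 higher in Trem2-/- libraries, with -0.18 at 4 weeks and 0.30 at 12 weeks, so the feeding times pointed in opposite directions. Tapbp stayed lower at -0.25 ± 0.17 and Psmb8 at -0.20 ± 0.20. None of the 8 genes was called (limma), beside 0.0278% of all genes. At an unadjusted p under 0.05 there were 0 of the 8, against 1.92% of all genes.

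Set against cuprizone, WT recovery libraries were lower for 5 of the 8 genes, with Tap1 at -0.26 ± 0.24 and Psmb8 at -0.21 ± 0.20. Trem2-/- recovery libraries were higher for 6 of the 8, with Tap1 at 0.45 ± 0.24. That Tap1 mean joins 0.07 at 4 weeks and 0.84 at 12 weeks, the latter against the library with conflicting time labels. Neither comparison called a member or any other gene (0%, limma). The genotypes differed in this change for Tap1 by 0.72 ± 0.34, with an unadjusted p of 0.065 and an interval of -0.06 to 1.49, and again no gene was called (0%). With titled feeding time as a block the unadjusted limma p for Tap1 was 0.026 and the adjusted p 0.90. Against control, the mean of the recovery libraries was higher for all 8 genes in WT, by 0.07 to 0.15, and for 4 of the 8 in Trem2-/-. Of all tested genes 49.3% were higher in WT and 49.5% in Trem2-/-. None was called in either (0% of all genes in both). In the WT pair of 4 weeks, which lies within 1 run, 7 of the 8 were higher and B2m was at -0.01. With the block the WT difference was -0.05 for Nlrc5 and 0.44 for Psmb9. These small values share 1 control library per genotype.

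Matching the genotypes within the 5 diet conditions gave the most precise genotype comparison. Tapbp was lower in Trem2-/- in 4 of 5 conditions, with a mean difference of -0.28 ± 0.11 (95% interval -0.52 to -0.05), an unadjusted limma p of 0.024 and an adjusted p of 0.375. It was the only 1 of the 8 genes at an unadjusted p under 0.05, as were 10.8% of all genes. Tap1 was at -0.25 ± 0.15 and Psmb8 at -0.19 ± 0.09, with limma adjusted p-values of 0.59 and 0.50. The Tap1 value was -0.10 without either library titled 12 weeks on cuprizone and -0.38 without either recovery library of 12 weeks. The other 5 genes lay between -0.03 and 0.04, with Nlrc5 read from its brightest probe. Thus 0 of the 8 were called, beside 0.259% of all genes, and Trem2 itself differed by -3.13 ± 0.10 (adjusted p 4.3e-07).

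**Figure D3:**
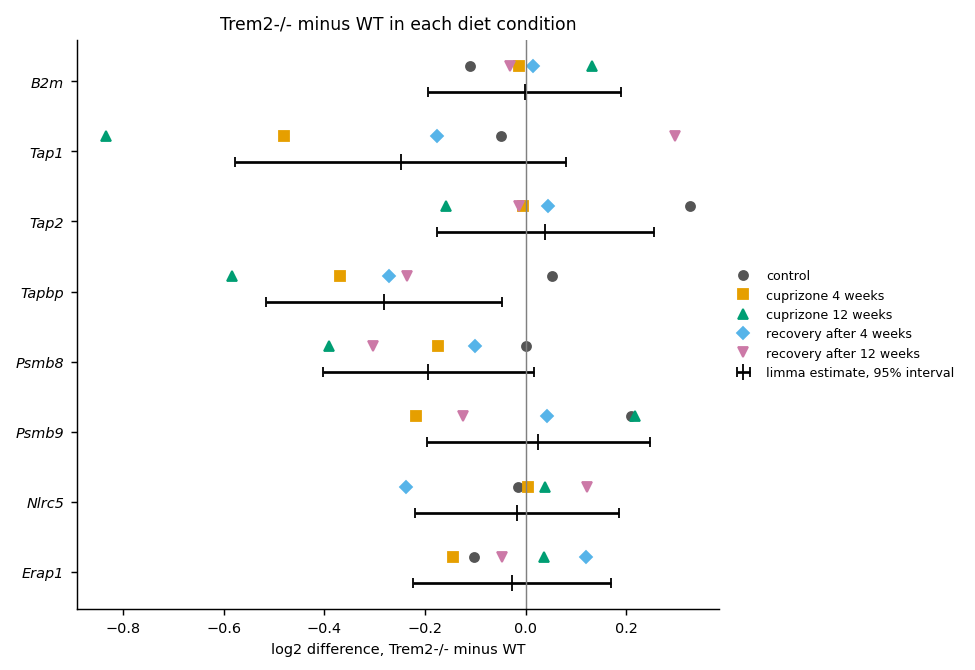
Log2 difference of Trem2-/- from WT for the 8 genes in each of the 5 diet conditions (coloured symbols, 1 pair of libraries each), with the limma estimate and its 95% interval in black. The Tapbp interval (-0.52 to -0.05) is the only one that stays below 0, and its control pair lies at 0.05.

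Most of these genes lie near each other in the major histocompatibility complex. H2-K1, H2-D1, Tap1, Tap2, Tapbp, Psmb8 and Psmb9 are on chromosome 17, which also carries Trem2, whereas B2m is on chromosome 2, Nlrc5 on 8 and Erap1 on 13. In the matched comparison 7 of 550 tested genes of chromosome 17 were called (1.27%), Trem2 among them, against 21 of 10242 elsewhere (0.205%). The members on that chromosome were not among the 7. Linkage to the deleted locus and loss of Trem2 cannot be told apart for genes of this chromosome.

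Of 11 tested genes for other class I heavy chains, on chromosome 17 and elsewhere, 1 was called lower and 1 higher in the matched comparison, both on chromosome 17, and the other 9 were not called. H2-M3, whose product presents formylated peptides, was 7.77, 8.29, 7.94, 7.95 and 7.74 in WT and 7.01, 7.45, 6.94, 7.11 and 7.37 in Trem2-/- libraries, in the order given for B2m. It was lower in 5 of 5 conditions, -0.76 ± 0.11 (limma adjusted p 0.022). H2-T24, a nonclassical heavy chain gene, was 6.84, 6.79, 7.12, 6.99 and 6.33 in WT and 7.86, 7.80, 7.43, 7.91 and 7.16 in Trem2-/- libraries. It was higher in 5 of 5 conditions, 0.82 ± 0.12 (adjusted p 0.024), and the control pair already differed by 1.02. For H2-M3 the control pair differed by -0.77, so both differences were present without cuprizone.

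Feeding time gave the only calls among the members. Psmb9 was lower at 12 than at 4 weeks in all 4 pairs: -1.14 in WT on cuprizone, -0.20 in WT recovery, -0.70 in Trem2-/- on cuprizone and -0.37 in Trem2-/- recovery. The mean difference was -0.60 ± 0.15 (limma adjusted p 0.024). Nlrc5 was higher in all 4 pairs, by 0.26 to 0.62, with a mean of 0.37 ± 0.11 (adjusted p 0.044). These 2 calls among 8 genes stand beside 20.3% of all tested genes, so their share is near the background. The medians over members and over all genes were -0.00 and -0.04.

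Both calls depend on single choices. With the conflicting library counted as 4 weeks, Psmb9 kept a difference of -0.57 (adjusted p 0.163) and Nlrc5 0.39 (adjusted p 0.155), and neither was called. Leaving out either WT cuprizone library brought Psmb9 to -0.42 (adjusted p 0.096), and it was also not called without either Trem2-/- cuprizone (adjusted p 0.078) or either Trem2-/- recovery library (adjusted p 0.054). Nlrc5 was called under none of the 8 omissions (adjusted p 0.074 to 0.174). The Nlrc5 direction also depends on the probe: 7 of its 19 probes were higher and 12 lower at 12 weeks, and the mean over probes gave -0.12 (adjusted p 0.519).

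The other genes gave smaller differences by feeding time. Tap1 was at -0.21 and Psmb8 at -0.18 (adjusted p 0.30 and 0.25), Erap1 and B2m both at 0.07, and Tap2 and Tapbp both at -0.00. The difference between genotypes in this comparison was called for 0 of the 8 genes and 0% of all genes.

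Of 8 tested genes for inducible proteasome parts and regulators, 4 were called lower at 12 weeks and 0 higher, with a median of -0.28, beside the 20.3% of all genes called in either direction. Psmb10, the remaining immunoproteasome subunit, was at -0.86 ± 0.11 (limma adjusted p 0.0015). Psme1 and Psme2, the subunits of the interferon-inducible PA28 cap, were at -0.54 ± 0.11 and -0.56 ± 0.11 (adjusted p 0.0079 and 0.0083), and Psmg2, an assembly chaperone, at -0.63 ± 0.13 (adjusted p 0.0091). Psme3, Psme4, Pomp and Psmg1 were not called. Whether the calls outside the members hold with the conflicting library as 4 weeks, or with a library left out, was not examined gene by gene. In the constitutive core, Psmb2 (-0.43) and Psma7 (-0.34) were called lower and Psmb4 (0.38) higher, 3 of 14 genes, a share near those 20.3%. H2-Q2, a class Ib heavy chain gene, was higher at 12 weeks by 0.60 ± 0.15 (adjusted p 0.023), from 4.55 to 4.81 at 4 weeks, below the table median. It entered the test only through its recovery libraries of 12 weeks, the 2 above that median, so its call is no independent support.

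Marker signal of other myeloid cells was lower in the exposed libraries of 12 weeks than in those of 4 weeks. Several of them entered the test only through libraries where they were high, so their levels are given and no count of calls. The summed linear intensity of the 10 neutrophil markers was 4692 to 14090 in the exposed libraries of 4 weeks, 6867 and 7257 in the controls and 209 to 368 in those of 12 weeks. For border macrophages the sum was 4581 to 5173 at 4 weeks, 1768 and 2324 in the controls and 2095 to 2358 at 12 weeks, and for the 8 measured monocyte markers 327 to 724, 426 and 442 in the controls, and 180 to 264 at 12 weeks. No marker was at 0, but only 1 to 2 of the 10 neutrophil and 0 to 3 of the 8 monocyte markers exceeded the table median in a 12-week library. The part of these cells in the Psmb9 and Nlrc5 differences was not tested.

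**Figure D4:**
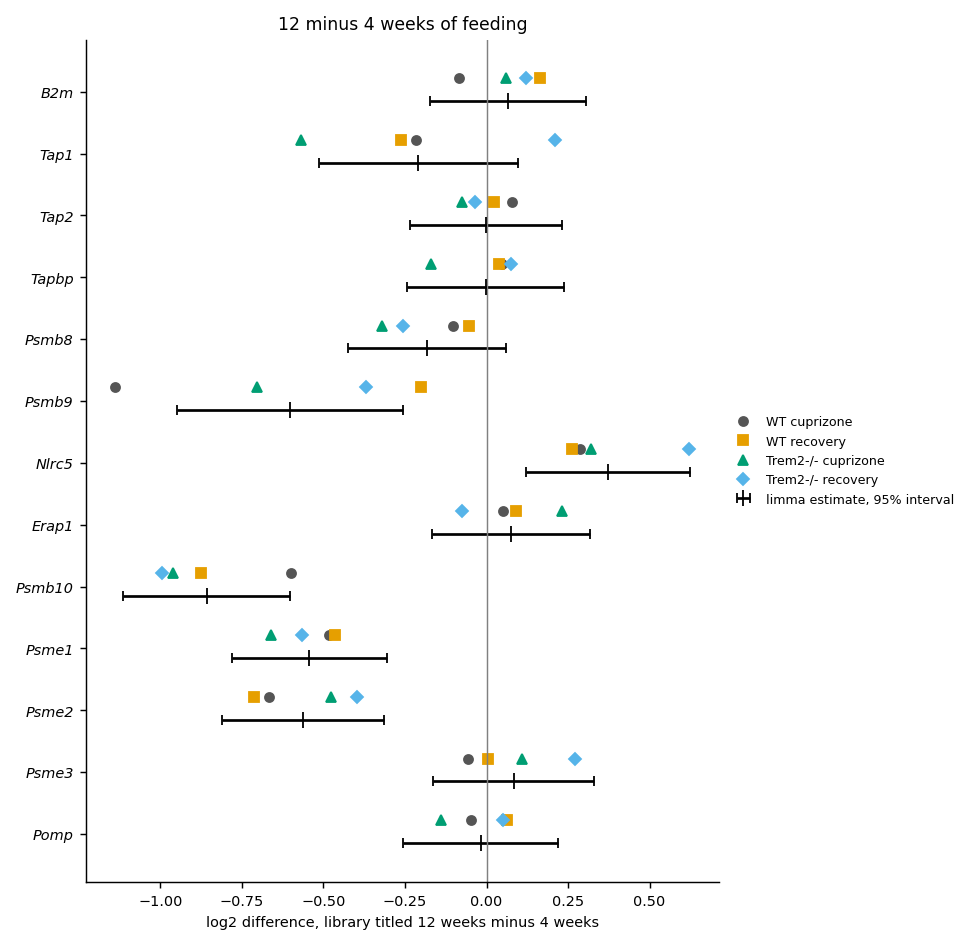
Log2 difference of the library titled 12 weeks from that of 4 weeks in each of the 4 groups (coloured symbols), with the limma estimate and 95% interval in black, for the 8 class I pathway genes and for 5 genes of the inducible proteasome and its regulators. Psmb9, Psmb10, Psme1 and Psme2 lie below 0 in all 4 groups and Nlrc5 above 0, while the Trem2-/- cuprizone pair rests on the library with conflicting time labels.

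The remaining Nlrc5 probes gave another picture of its response to cuprizone. In WT, 16 of 19 probes were higher than control at 4 weeks (median 0.28) and 10 of 19 at 12 weeks (median 0.02). In Trem2-/- libraries 16 of 19 were higher at 4 weeks (median 0.15) and 9 of 19 at 12 weeks (median -0.02). Averaged over conditions, 17 of 19 were lower in Trem2-/- than in WT, with a median difference of -0.10. The brightest probe, at -0.09 in WT at 4 weeks, was among the 3 that were not higher. Probes of 1 gene on the same arrays are not replicates, 4 of the 19 were below the table median on every array, and no test was made over probe counts. The test of their mean is given above for feeding time. In the matched genotype comparison the mean over probes gave -0.17, and Nlrc5 was not called there under any alternative (smallest limma adjusted p 0.58).

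The genes varied together only in part. Over the 6 libraries of controls and 4 weeks, Pearson's r was 0.85 between Tap1 and Psmb8, 0.85 between Psmb8 and Psmb9 and 0.76 between Tap1 and Psmb9, which share a promoter region. Some other pairs had the opposite sign, with B2m and Tap2 at -0.855 and Nlrc5 and Erap1 at -0.69. Over all 10 arrays the first 3 pairs gave 0.54, 0.29 and 0.36. These values share libraries, diet and run. The mean of the 8 genes, each centred on its own mean, was highest in WT after 4 weeks of cuprizone (0.16) and lowest in the Trem2-/- library titled 12 weeks (-0.17).

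The genes outside the set that followed this mean most closely over the 10 arrays were Dnase1l1 and Fblim1 (r 0.94 each), Cacna1a (0.94), Spice1, Gltp and Arhgef2 (0.93 each), and Timp2, Tbx6, Anxa2 and Aprt (0.91 each). None belongs to the lists of class I, proteasome, interferon or cell type genes used here. They are the extremes of 10792 genes over 10 points, and the correlations describe these libraries only.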

How the data were processed

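The deposited table held linear probe intensities for 10 arrays of sorted mouse microglia, with 24567 probes. RNA was amplified and biotin-labelled per the labels' protocols. The sources used here do not state the background correction, normalization or summarization. Log2 of the deposited intensities was analysed as it stood. Probes were named from the platform annotation (21259 with 1 gene, 1274 with several, 2034 with none), of which 21182 matched RefSeq GRCm38.p6. The brightest single-gene probe represented each gene, and genes above the table median (38.5 in linear intensity) on at least 2 arrays were tested. limma 3.58.1 in R 4.3.3 fitted means of 6 groups, which share 1 estimate of the spread. The genotype comparison over 5 conditions had condition as a block, and that of feeding time (8 arrays) had group as a block. Two-sided p-values were adjusted by Benjamini-Hochberg over 10792 genes, with calls at 0.05. The fits were tested on simulated data. The number of arrays limits the precision.

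The members and lists were chosen with earlier results of these data known. Named were all members, Trem2, per list the 1 to 3 genes with the smallest p, and the 10 genes most like the members. Psmg2, the proteasome genes that were not called, further genes of 5 or fewer called in a list and single cell type markers were named after their values were seen. Alternatives covered scaling, probe choice, filter, offset, prior, the block by titled feeding time, the conflicting label and each omitted library.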

Additional observations from a re-analysis of the deposited data

Results flagged for a closer look

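Some genes moved in opposite directions in the libraries of the 2 genotypes. Tapbp was above the WT control and below the Trem2-/- control in every exposed library: the Trem2-/- minus WT response was -0.53 on cuprizone and -0.31 in recovery. Tap2 did likewise, at -0.41 and -0.31, but its WT control was its lowest library and its Trem2-/- control its highest. On going from cuprizone to recovery, Tap1 was lower in both WT pairs (-0.24 and -0.29) and higher in both Trem2-/- pairs (0.07 and 0.84). The genotype difference was 0.72, and the Trem2-/- pair at 0.84 rests on the library with conflicting time labels. Tapbp had the same signs (0.22), but its WT pairs were near 0 (-0.01 and -0.02), with 0.08 and 0.33 in Trem2-/- pairs. From 4 to 12 weeks, Tap2 was slightly higher in both WT pairs and lower in both Trem2-/- pairs (-0.10). The cuprizone, cuprizone to recovery and feeding time differences were tested as limma interactions and none was called. The unadjusted p was 0.065 for Tap1 and above 0.1 for the others. With titled feeding time as a block it was 0.026 for Tap1 and 0.073 for Tapbp on cuprizone, again not called. The difference between genotypes in recovery against control was not tested. Each group held 2 libraries and those against control shared 1 control library. These patterns were picked by their direction among the members, and their share over all tested genes was not counted.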

How the results depend on the processing

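In 13 of the 14 comparisons 0 members were called under every alternative run, and the smallest adjusted p over the members was 0.206 (Tap1, Trem2-/- against WT on cuprizone, with titled feeding time as a replicate block). The number called by feeding time was 2, and it was 0 with the conflicting library counted as 4 weeks, 1 with array medians subtracted, 1 with the mean over probes, 1 with no filter, and 0 to 1 with each library left out. Over 2000 member values under 20 alternatives, 1 called value reversed (Nlrc5 by feeding time, -0.12 with the mean over probes), 18 lost the call and 0 gained it; 136 uncalled values changed sign. The replicate block changed no member's call. Counts over all genes moved more. With the block they were 105 (WT cuprizone against control, 16 without it), 13 (Trem2-/-, 0), 69 (both genotypes, 12), 9 (interaction, 1), 153 (genotype on cuprizone, 36), 10 (genotype in recovery, 3), 7 (WT recovery against cuprizone, 0) and 19 for recovery against control in each genotype (0). With the block and the conflicting library as 4 weeks they were 37, 0, 31, 1, 55, 8, 0, 1 and 2. The matched genotype count of 28 was 44 with no filter, 54 with an offset of 16, 99 with an intensity trend and 8 to 103 with a library left out. Feeding time went from 2194 to 186 with the conflicting library as 4 weeks and to 1064 to 1621 with a library left out. Testing only genes above the table median on all arrays gave 0, 4, 0, 7 and 1 for WT cuprizone, both genotypes, interaction, and genotype on cuprizone and in recovery, and leaving out a library gave 2 to 16, 0 to 10, 0 to 1, 0 to 42 and 0 to 4; the genotype difference by feeding time had 0 to 1. The interaction count was also 0 with array medians subtracted or the offset. The cause of these shifts was not tested. Groups of 1 or 2 libraries limit precision: where an omission leaves a group with 1 library, that library is assumed to vary like the others.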

Other observations

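Of 8 tested MHC class II genes, which serve CD4+ T cells, 3 were called lower at 12 weeks: H2-DMa by -0.68, H2-Eb1 by -0.82 and H2-Aa by -0.82 (limma adjusted p 0.0031, 0.0081 and 0.014). In the matched genotype comparison 7 of 8 were lower in Trem2-/- with 0 called and 4 at an unadjusted p under 0.05, as were 10.8% of all genes. Of 19 tested regulators of class I transcription, Rela (0.59) and Stat3 (0.39) were called higher and Irf2 (-0.49) lower at 12 weeks. Of 7 interferon receptor and kinase genes, Jak2 (0.61) was called higher, and Tyk2 (-0.54) and Ifngr1 (-0.47) lower. Among loading factors, Tpp2 (0.49) was called higher, and Bcap31 (-0.46) and Tapbpl (-0.38) lower, of 16 tested. Of 18 interferon-induced genes, 3 were called higher, Cxcl10 (2.07) and Ifit1 (1.39) among them, and 2 lower, Xaf1 (-1.43) among them. Ifit1 was at 4.19 to 5.44 in the controls and 4-week libraries and at 5.30 to 7.12 in those of 12 weeks. It passed the filter only through the 12-week libraries, so its call is no independent support. These counts stand beside the 20.3% of all genes called for feeding time. The named calls were not examined under the alternatives.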
